A study of Drosophila melanogaster with 6 samples.

Results

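In 1 of the 3 room temperature control libraries of fly heads, 33 genes stood at more than 4 times their level in both replicate libraries. The genes were chosen by that difference: the log2 of normalised counts (CPM, the count of a gene scaled to a library total of 1000000 gene counts) with 0.5 added had to be more than 2 higher in RT control replicate 1 than in RT control replicates 2 and 3. Of the 17559 genes in the count files, 39 passed (0.222%), and 6 of these were set aside by symbol because they encode antimicrobial peptides (*DptA*, *DptB*, *Dro*, *Mtk*, *AttB* and *AttC*). The other 33 are described here. The levels in the RT libraries are the values that selected them and are therefore given as a description without a test.

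All 6 libraries held polyA RNA of whole heads of female *Drosophila melanogaster*, each from a pool of flies, and carried no knockdown. The RT control carried 1 copy of *Elav-GAL4* in w[1118] flies, had no Dicer2 transgene and was kept at room temperature (n = 3). The Dicer2 25C control carried the same driver in w[1118] flies together with 1 copy of *UAS-Dicer2* and was kept at 25°C (n = 3). Both groups shared the VDRC stock v60000 as the control cross and the *Elav-GAL4* driver, which turns on UAS transgenes in neurons, so that Dicer2, the enzyme that cuts double-stranded RNA, was driven in neurons while the RNA came from the whole head. Genotype, Dicer2 and temperature differed together between the groups and cannot be told apart. The labels used here name neither the age of the flies nor the hour of collection.

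Most of the 33 genes encode metabolic enzymes, and most of their reads belonged to de novo purine synthesis, lipid breakdown and folate-dependent one-carbon metabolism. Purine synthesis builds the ring of adenine and guanine nucleotides on ribose phosphate in a chain of enzyme steps. Some of these steps take up a formyl group carried by tetrahydrofolate, and serine and glycine are the usual sources of that carbon, so that the pathways are linked in metabolism. The fly head contains fat body, muscle, glia and cuticle besides neurons, and in bulk RNA of this kind a change in the number of cells of a type and a change in RNA per cell cannot be told apart.

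The 33 genes together took 11176 CPM in RT replicate 1 (1.12% of its gene counts), against 1542 and 1640 CPM in RT replicates 2 and 3 and 869, 1021 and 1571 CPM in Dicer2 25C replicates 1, 2 and 3. In RT replicate 1 their median level was 147 CPM, 20 of them were above 100 CPM and 7 were under 10 CPM. The ratio of RT replicate 1 to the mean of RT replicates 2 and 3 had a median of 7.61 and was lowest for *Mcad* at 4.21. Of RT replicates 2 and 3, replicate 3 was the higher at 24 of these genes and replicate 2 the higher at 9. They were not equally close at all of them: *CG5966* had 26.2 and 38.6 CPM and *CG15337* had 6 and 1 counts. The genes were spread over the genome, with 8 on chromosome 2L, 3 on 2R, 7 on 3L, 8 on 3R and 5 on X. Of the 31 with an entry in the annotation used here, 30 were protein coding. The remaining pair is known only by the FlyBase identifiers FBgn0033465 and FBgn0028519.

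**Figure D1:**
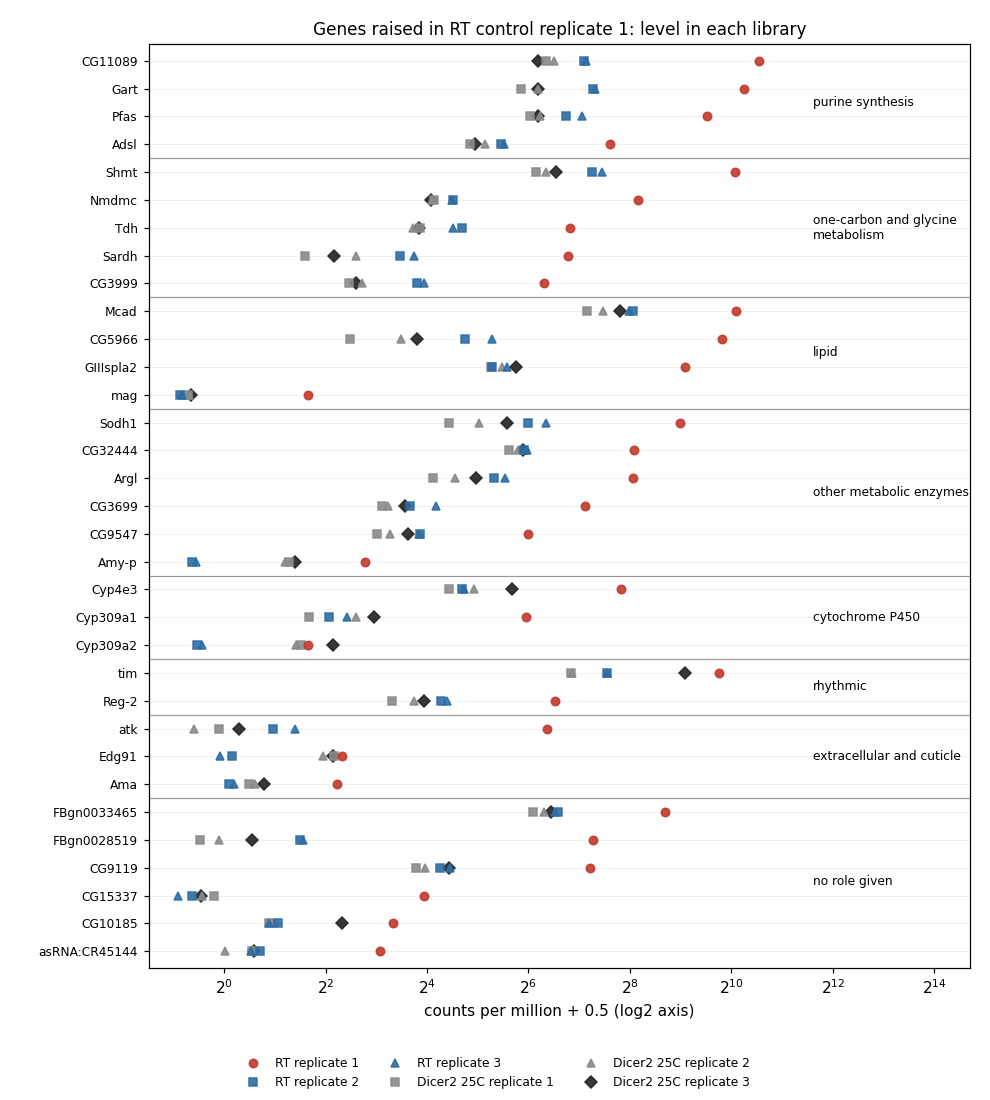
Level of each of the 33 genes in the 6 libraries, as CPM + 0.5 on a log2 axis, grouped by the role of the encoded product. Each point is 1 library; RT replicate 1 (red) lies to the right of RT replicates 2 and 3 (blue) in every line because the genes were chosen that way, and it lies to the right of all Dicer2 25C libraries (grey and black) for 32 of the 33.

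Just inside the threshold were *Ama*, *Mcad* and *Adsl*, whose log2 difference to the nearer RT library was 2.02, 2.03 and 2.08. Just outside were *CG16758*, a little under 2, and *CG13133* and *CG5793*, both at 1.93. *CG16758* had 502 CPM in RT replicate 1 and 122 and 125 CPM in RT replicates 2 and 3, so the edge of the set cuts through genes with much the same pattern.

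The same measure was applied to each other library against its own group. It found 0 genes in RT replicate 2, 12 in RT replicate 3, 33 in Dicer2 25C replicate 1, 3 in Dicer2 25C replicate 2 and 12 in Dicer2 25C replicate 3. RT replicate 1 was also more than 2 log2 units below both other RT libraries at 14 genes, several of which encode heat shock proteins. *Hsp26* had 6.71 CPM in RT replicate 1, against 153 and 1024 CPM in RT replicates 2 and 3 and 5.90, 6.55 and 13.4 CPM in the Dicer2 25C libraries, so for this gene RT replicate 1 was close to the other group. RT replicate 1 did not stand apart in depth or in reads without a gene: gene counts were 34.9 M in it and 18.7 to 42.5 M over the 6 libraries, and reads outside genes were 3.66% in it and 3.16% to 4.76% over the 6. At these depths 3 counts correspond to 0.0706 to 0.161 CPM, a floor that covers counting error only. Ambiguous reads were 3.08% in RT replicate 1, 2.39% and 2.51% in RT replicates 2 and 3, and 2.36% to 3.62% in the Dicer2 25C libraries. Dicer2 25C replicate 1 had 69.4 M alignments set aside as not unique, against 7.16 to 8.45 M in the other libraries. The labels were checked on *Dcr-2*, which had 57.7, 55.2 and 55.3 CPM in RT replicates 1, 2 and 3 and 623, 610 and 539 CPM in the Dicer2 25C libraries, in the direction of the transgene.

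Enzymes of de novo purine synthesis held the most reads of any group, with 4 genes that summed to 3644 CPM in RT replicate 1, 441 and 476 CPM in RT replicates 2 and 3, and 232, 272 and 247 CPM in the Dicer2 25C libraries. *CG11089* (FBgn0039241, chromosome 3R from 24877045 to 24881478, plus strand, BDGP6.54) is the fly counterpart of human ATIC, which catalyses the last steps of the chain. It had the highest level of all 33 genes, with 1499 CPM in RT replicate 1, 137 and 140 CPM in RT replicates 2 and 3, and 81.0, 90.5 and 72.4 CPM in Dicer2 25C replicates 1, 2 and 3. RT replicate 1 was 10.8 times the mean of the other RT libraries, while the 5 other libraries spanned 72.4 to 140 CPM. *Gart* (FBgn0000053, chromosome 2L from 7014623 to 7023898, minus strand), a trifunctional enzyme of the same chain, had 1222 CPM in RT replicate 1, 154 and 159 CPM in RT replicates 2 and 3, and 57.4, 72.0 and 72.2 CPM in the Dicer2 25C libraries. *Pfas* (FBgn0000052, chromosome 2L from 6041181 to 6046050, minus strand), which adds a nitrogen from glutamine, had 729 CPM in RT replicate 1, 106 and 132 CPM in RT replicates 2 and 3, and 65.1, 74.8 and 72.0 CPM in the Dicer2 25C libraries. *Adsl* (FBgn0038467, chromosome 3R), adenylosuccinate lyase, was the least raised at 193 CPM in RT replicate 1, 43.7 and 45.4 CPM in RT replicates 2 and 3, and 28.1, 34.7 and 30.5 CPM in the Dicer2 25C libraries. In all 4 genes both RT replicates 2 and 3 were above all 3 Dicer2 25C libraries, and RT replicate 1 was far above both sets.

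The rest of the pathway was read from a list of 11 genes written with these values in view, for which no test is given. The 4 genes above are on this list and were high by choice. Of the 7 others, 3 were more than 1 log2 unit above both other RT libraries in RT replicate 1 and 0 were as far below, where over all 10187 genes tested 1.91% were above and 0.471% below. The median difference to the mean of RT replicates 2 and 3 was 0.19 log2 units over these 7 genes and -0.05 over all genes tested. The 3 were *Prps*, which makes the activated ribose, *Prat2*, the committed step, and *Paics*. *Paics* had 1265 CPM in RT replicate 1, 360 and 343 CPM in RT replicates 2 and 3, and 146, 167 and 179 CPM in the Dicer2 25C libraries. *Prat2* had 438 CPM in RT replicate 1, 141 and 129 CPM in RT replicates 2 and 3, and 73.5, 77.3 and 80.5 CPM in the Dicer2 25C libraries. Its paralog *Prat* did not follow, with 9.49 CPM in RT replicate 1, 11.1 and 9.85 CPM in RT replicates 2 and 3, and 9.17 to 10.5 CPM in the Dicer2 25C libraries. Nor did *ras* and *bur*, which act on the guanine branch. *ras*, IMP dehydrogenase, had 147 CPM in RT replicate 1 and 186 and 179 CPM in RT replicates 2 and 3, and *bur*, GMP synthetase, had 119 CPM in RT replicate 1 and 120 and 118 CPM in RT replicates 2 and 3. The genes of the list raised by more than 1 log2 unit were therefore all in the steps leading up to inosine monophosphate. Among them *Adsl* acts both in the chain and on the adenine branch. Not every gene of these steps was raised, as *Prat* shows.

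One-carbon and glycine metabolism was represented by 5 genes that summed to 1657 CPM in RT replicate 1, 224 and 247 CPM in RT replicates 2 and 3, and 109, 122 and 132 CPM in the Dicer2 25C libraries. *Shmt* (FBgn0029823, chromosome X from 5913067 to 5916797, minus strand), serine hydroxymethyltransferase, moves a carbon from serine to tetrahydrofolate. It had 1071 CPM in RT replicate 1, 153 and 175 CPM in RT replicates 2 and 3, and 70.1, 81.0 and 92.6 CPM in the Dicer2 25C libraries. *Nmdmc* (FBgn0010222, chromosome 3R from 9042508 to 9050555, minus strand), the mitochondrial methylenetetrahydrofolate dehydrogenase, had 286 CPM in RT replicate 1, 22.2 and 22.1 CPM in RT replicates 2 and 3, and 17.2, 16.5 and 16.4 CPM in the Dicer2 25C libraries. Its 5 other libraries spanned only 16.4 to 22.2 CPM, and RT replicate 1 was 12.9 times the mean of RT replicates 2 and 3. *Sardh* (FBgn0034276, chromosome 2R), sarcosine dehydrogenase, which returns a carbon to the folate pool, had 109 CPM in RT replicate 1, 10.5 and 12.9 CPM in RT replicates 2 and 3, and 2.52 to 5.56 CPM in the Dicer2 25C libraries. *CG3999* (FBgn0037801, chromosome 3R), the fly glycine decarboxylase of the glycine cleavage system, had 78.9 CPM in RT replicate 1, 13.5 and 14.8 CPM in RT replicates 2 and 3, and 4.99, 6.12 and 5.55 CPM in the Dicer2 25C libraries. *Tdh* (FBgn0036997, chromosome 3L), threonine dehydrogenase, had 112 CPM in RT replicate 1, 25.2 and 22.4 CPM in RT replicates 2 and 3, and 14.0, 12.7 and 13.9 CPM in the Dicer2 25C libraries. For each of the 5, the 3 sets of libraries fell in the same order, with RT replicate 1 highest and the Dicer2 25C libraries lowest, and no overlap between them.

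A list of 15 genes of this pathway, also written after the values were known, holds these 5 and 10 others. Of the 10 others, 3 were more than 1 log2 unit above both other RT libraries in RT replicate 1 and 1 was as far below, with a median difference of 0.46 log2 units. The 3 were *pug*, *Gnmt* and *CG6415*. *pug*, the cytosolic enzyme that interconverts the folate-bound carbons, had 1062 CPM in RT replicate 1, 286 and 317 CPM in RT replicates 2 and 3, and 100, 135 and 152 CPM in the Dicer2 25C libraries. *CG6415*, the aminomethyltransferase of the glycine cleavage system, had 142 CPM in RT replicate 1 and 44.7 and 44.6 CPM in RT replicates 2 and 3. The glycine cleavage system did not move as a whole: *ppl*, its carrier protein, had 87.6 CPM in RT replicate 1 and 65.9 and 68.2 CPM in RT replicates 2 and 3, and the dihydrolipoamide dehydrogenase *CG7430*, which other enzyme complexes share, had 457 CPM in RT replicate 1 and 407 and 400 CPM in RT replicates 2 and 3. *CG8665*, a formyltetrahydrofolate dehydrogenase that removes the formyl group as carbon dioxide, was the exception in direction, with 2.81 CPM in RT replicate 1, 16.1 and 12.6 CPM in RT replicates 2 and 3, and 12.2, 16.5 and 14.5 CPM in the Dicer2 25C libraries.

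**Figure D2:**
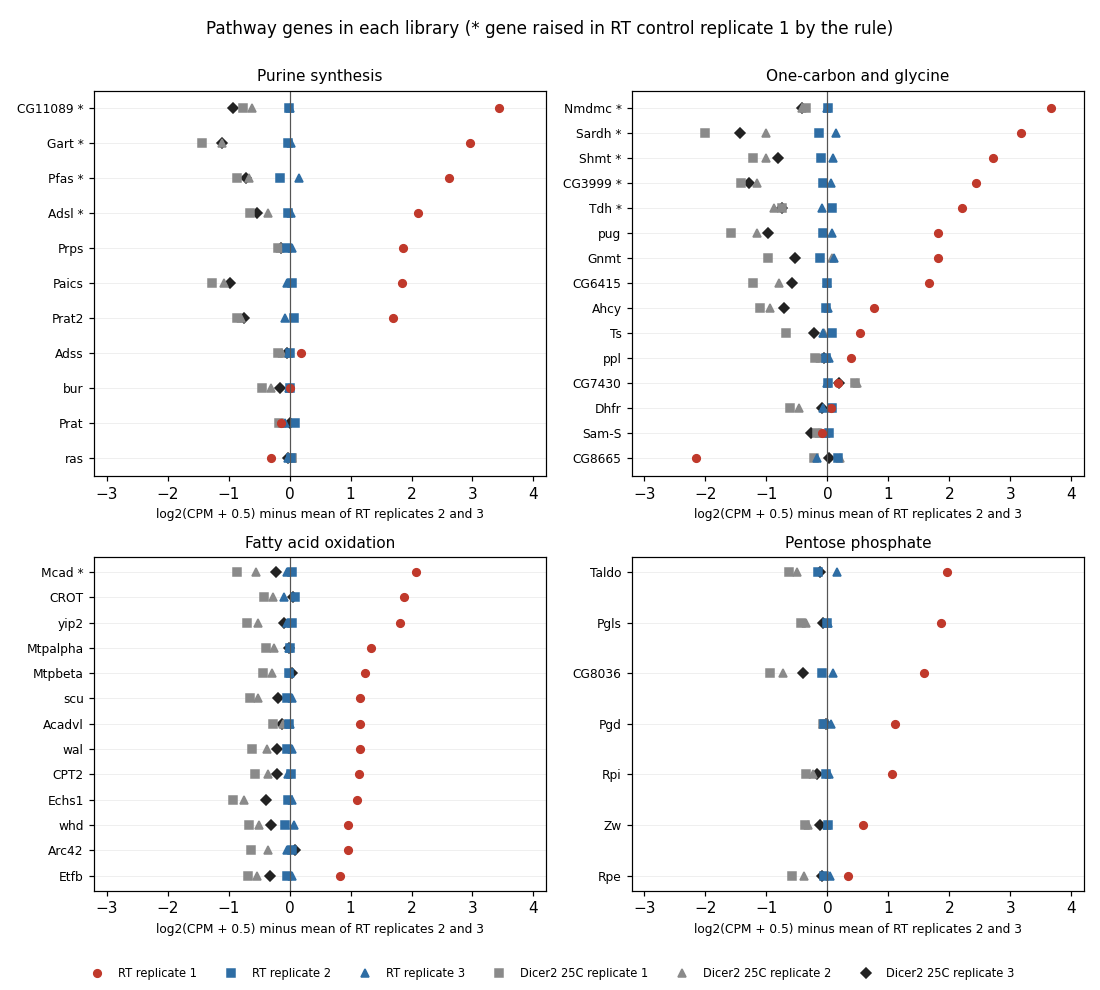
Genes of 4 metabolic pathways in each library, as log2(CPM + 0.5) minus the mean of RT replicates 2 and 3; each point is 1 library and an asterisk marks one of the 33 genes. Over the genes without an asterisk, RT replicate 1 (red) lies right of 0 by a median of 0.19 in purine synthesis, 0.46 in one-carbon and glycine metabolism, 1.15 in fatty acid oxidation and 1.10 in the pentose phosphate pathway. The pathway lists were written after the values were known.

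Enzymes that break down lipids formed the next group. *Mcad* (FBgn0035811, chromosome 3L from 7719350 to 7721472, plus strand), medium-chain acyl-CoA dehydrogenase of mitochondrial fatty acid oxidation, had 1091 CPM in RT replicate 1, 267 and 251 CPM in RT replicates 2 and 3, and 143, 176 and 222 CPM in the Dicer2 25C libraries. Per kilobase of exon it was the most abundant of the 31 annotated genes in RT replicate 1, at 747 CPM per kb, ahead of *CG11089* at 656 and *Shmt* at 425 CPM per kb. *CG5966* (FBgn0029831, chromosome X from 5988791 to 5992640, plus strand), a predicted lipase, was among the most raised, with 897 CPM in RT replicate 1, 26.2 and 38.6 CPM in RT replicates 2 and 3, and 5.09, 10.8 and 13.4 CPM in the Dicer2 25C libraries. That is 27.7 times the mean of RT replicates 2 and 3 and 66.9 times the highest Dicer2 25C library. *GIIIspla2* (FBgn0030013, chromosome X), a secreted phospholipase A2, had 543 CPM in RT replicate 1, 38.3 and 47.5 CPM in RT replicates 2 and 3, and 37.9, 43.8 and 53.4 CPM in the Dicer2 25C libraries, so that only RT replicate 1 left the shared range of the 5 others. *mag*, the gut lipase magro, was near the floor outside RT replicate 1, with 92 counts there, 2 counts in each other RT library and 2 to 3 counts in each Dicer2 25C library. *mag* lies within *atk*, another of the 33, on the opposite strand, and since the strand setting of the counting is not stated its reads may not be told apart from those of *atk*.

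In a list of fatty acid oxidation genes written after the values were known, all 12 genes besides *Mcad* were above both other RT libraries in RT replicate 1, 9 of them by more than 1 log2 unit, with a median difference of 1.15 log2 units. *yip2*, a thiolase, had 442 CPM in RT replicate 1, 128 and 122 CPM in RT replicates 2 and 3, and 76.6, 87.1 and 117 CPM in the Dicer2 25C libraries. A list of 7 genes of the pentose phosphate pathway, which supplies ribose phosphate and NADPH, was also written after the values were known. All 7 were higher in RT replicate 1 and 5 by more than 1 log2 unit. None of the 7 is among the 33, and no test is given for them. Over all 10187 genes tested, 1.91% were above both by more than 1 log2 unit. The share above both by any margin was not counted. *Taldo*, transaldolase, had 687 CPM in RT replicate 1, 158 and 196 CPM in RT replicates 2 and 3, and 114, 125 and 161 CPM in the Dicer2 25C libraries. The transketolase gene *CG8036* had 1359 CPM in RT replicate 1, 425 and 479 CPM in RT replicates 2 and 3, and 236, 272 and 340 CPM in the Dicer2 25C libraries. *Zw*, the entry enzyme glucose-6-phosphate dehydrogenase, had a smaller difference, with 73.7 CPM in RT replicate 1 and 49.5 and 49.0 CPM in RT replicates 2 and 3.

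Of the other metabolic enzymes, *Sodh1* (FBgn0024289, chromosome 3R), sorbitol dehydrogenase, had 510 CPM in RT replicate 1, 63.5 and 80.3 CPM in RT replicates 2 and 3, and 21.1, 31.8 and 47.5 CPM in the Dicer2 25C libraries. *CG32444* (chromosome 3L), a predicted aldose epimerase, had 269 CPM in RT replicate 1, 59.5 and 62.5 CPM in RT replicates 2 and 3, and 48.8, 55.4 and 59.2 CPM in the Dicer2 25C libraries. *Argl* (chromosome 2L), argininosuccinate lyase, had 265 CPM in RT replicate 1, 39.7 and 45.8 CPM in RT replicates 2 and 3, and 16.8, 23.1 and 30.6 CPM in the Dicer2 25C libraries. For *Sodh1* and *Argl* the Dicer2 25C libraries were themselves spread, with replicate 3 the highest and replicate 1 the lowest. *CG3699*, annotated as a dienoyl-CoA reductase, had 139 CPM in RT replicate 1 and 12.3 and 17.6 CPM in RT replicates 2 and 3. *CG9547*, glutaryl-CoA dehydrogenase of lysine breakdown, had 63.4 CPM in RT replicate 1 and 14.1 and 13.9 CPM in RT replicates 2 and 3. Both had lower levels in all 3 Dicer2 25C libraries, at 8.15 to 11.4 CPM for *CG3699* and 7.61 to 11.9 CPM for *CG9547*. *Amy-p*, an amylase, differed from these: it had 6.39 CPM in RT replicate 1, 0.141 and 0.177 CPM in RT replicates 2 and 3, and 1.93, 1.79 and 2.14 CPM in the Dicer2 25C libraries. *Amy-p* has a near-identical copy, *Amy-d*, and how shared reads were split between them is uncertain. *Amy-d* had 24.8 CPM in RT replicate 1, 13.2 and 16.5 CPM in RT replicates 2 and 3, and 4.13, 6.15 and 5.32 CPM in the Dicer2 25C libraries, and thus was highest in RT replicate 1 as well but lowest in the other group.

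The cytochrome P450 enzymes among the 33 were *Cyp4e3*, *Cyp309a1* and *Cyp309a2*, of a family that oxidises lipids, hormones and foreign compounds. *Cyp4e3* (chromosome 2L) had 226 CPM in RT replicate 1, 25.3 and 26.0 CPM in RT replicates 2 and 3, and 21.0, 29.7 and 50.7 CPM in the Dicer2 25C libraries. *Cyp309a1* had 61.5 CPM in RT replicate 1, 3.72 and 4.84 CPM in RT replicates 2 and 3, and 2.68, 5.56 and 7.23 CPM in the Dicer2 25C libraries. In both, Dicer2 25C replicate 3 was the highest and replicate 1 the lowest of its group, and RT replicates 2 and 3 fell inside the range of that group. *Cyp309a2*, whose annotated span lies 56 bases from that of *Cyp309a1* on chromosome 2L, had 2.67 CPM in RT replicate 1, 0.188 and 0.236 CPM in RT replicates 2 and 3, and 2.36, 2.18 and 3.91 CPM in the Dicer2 25C libraries. It was the only one of the 33 for which a Dicer2 25C library was above RT replicate 1. Among the 73 other tested genes of a list for detoxification and redox defence, 7 were more than 1 log2 unit above both other RT libraries in RT replicate 1 and 0 were as far below, while the median difference was 0.07 log2 units.

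The clock gene *tim* (FBgn0014396, chromosome 2L from 3493986 to 3508119, minus strand) was the only one of the 33 that also passed the same threshold within the Dicer2 25C control, libraries that had no part in the choice. Timeless pairs with Period in the negative feedback loop of the circadian clock, and the RNA of both cycles over the day. *tim* had 870 CPM in RT replicate 1, 186 and 186 CPM in RT replicates 2 and 3, and 114, 115 and 542 CPM in Dicer2 25C replicates 1, 2 and 3. Dicer2 25C replicate 3 thus was more than 2 log2 units above both libraries of its own group, as were 48 of the 17559 genes (0.273%) in some Dicer2 25C library. *per*, the partner of *tim*, had 140 CPM in RT replicate 1, 58.3 and 62.5 CPM in RT replicates 2 and 3, and 31.8, 33.7 and 110 CPM in the Dicer2 25C libraries. *vri*, a repressor of *Clk*, had 220 CPM in RT replicate 1, 87.0 and 100 CPM in RT replicates 2 and 3, and 36.4, 40.2 and 162 CPM in the Dicer2 25C libraries. *Clk*, whose product turns on *tim*, *per* and *vri* and whose RNA cycles in the opposite phase, had 33.0 CPM in RT replicate 1, 64.7 and 60.1 CPM in RT replicates 2 and 3, and 73.3, 68.4 and 46.4 CPM in the Dicer2 25C libraries. The same pair of libraries, RT replicate 1 and Dicer2 25C replicate 3, was the highest of its group for *tim*, *per* and *vri* and the lowest for *Clk*. *cyc*, the partner of *Clk*, whose RNA does not cycle, had 47.6 CPM in RT replicate 1, 51.0 and 49.5 CPM in RT replicates 2 and 3, and 48.4, 46.6 and 57.0 CPM in the Dicer2 25C libraries.

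**Figure D3:**
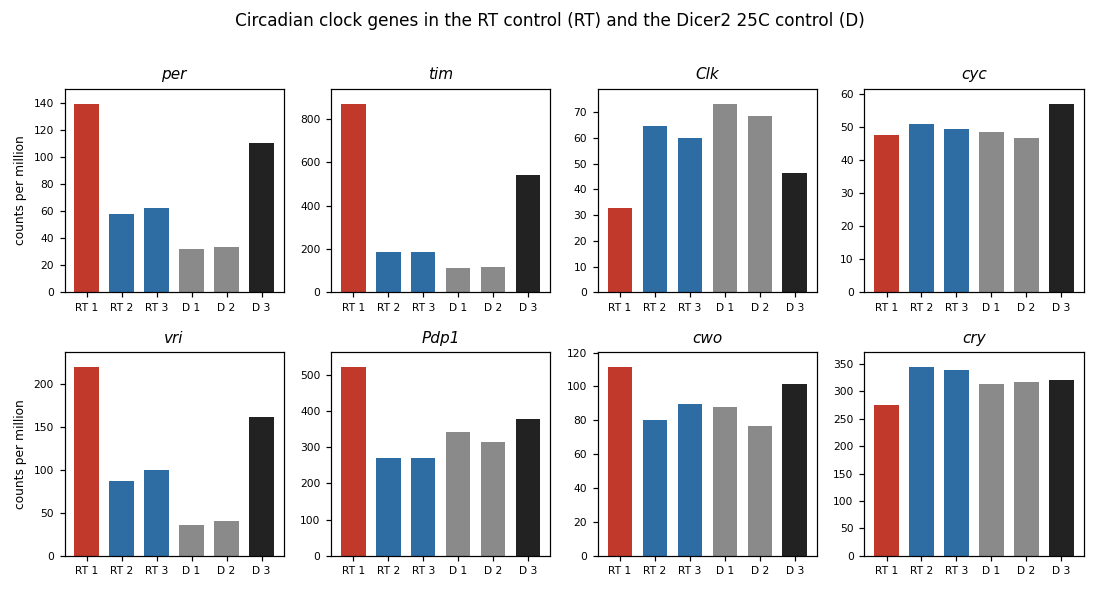
Level in CPM of 8 circadian clock genes in each library, 1 bar per library, with RT replicates 1 to 3 (red, then blue) left of Dicer2 25C replicates 1 to 3 (grey, then black for replicate 3). *tim* is at 870 CPM in RT replicate 1 and 542 CPM in Dicer2 25C replicate 3 and between 114 and 186 CPM in the other 4 libraries, *per* and *vri* are highest in the same pair of libraries, and *Clk* is lowest there.

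*Reg-2*, named for its rhythmic expression, had 91.3 CPM in RT replicate 1, 18.9 and 20.5 CPM in RT replicates 2 and 3, and 9.44, 12.8 and 14.9 CPM in the Dicer2 25C libraries. For *Reg-2* too Dicer2 25C replicate 3 was the highest of its group, but by less than for *tim*. This held for 24 of the 33 genes, where over all 15168 genes with a count in that group the share was 46.4%. From lowest to highest, the 3 Dicer2 25C libraries spanned a median of 0.49 log2 units over the 33 genes and 0.26 over all genes tested. The lead of replicate 3 over the next library was not measured.

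Genes of extracellular matrix and cuticle included one of the most raised of the set. *atk* (artichoke, FBgn0036995, chromosome 3L from 20454690 to 20464862, minus strand), which encodes an extracellular leucine-rich repeat protein, had 81.9 CPM in RT replicate 1, 1.46 and 2.12 CPM in RT replicates 2 and 3, and 0.429, 0.159 and 0.727 CPM in the Dicer2 25C libraries. RT replicate 1 was 45.7 times the mean of RT replicates 2 and 3. *mag* lies inside *atk* on the opposite strand and *Tdh* begins 2082 bases beyond it, so 3 of the 33 genes stand side by side on chromosome 3L. *Ama*, a secreted immunoglobulin-domain adhesion protein, had 4.16 CPM in RT replicate 1, 0.565 and 0.649 CPM in RT replicates 2 and 3, and 0.911, 1.03 and 1.23 CPM in the Dicer2 25C libraries. *Edg91*, a cuticle gene that depends on ecdysone, had 4.47 CPM in RT replicate 1, 0.612 and 0.443 CPM in RT replicates 2 and 3, and 3.97, 3.38 and 3.96 CPM in the Dicer2 25C libraries. For *Edg91*, as for *Cyp309a2* and *Amy-p*, RT replicates 2 and 3 were the low libraries of the 6, and RT replicate 1 lay near or above the level of the other group. A list of cuticle and pigment genes, which holds 0 of the 33, did not share the rise. Of its 18 tested genes, 3 were above both other RT libraries in RT replicate 1 and 11 below both. By more than 1 log2 unit, 0 were above and 1 below, with a median difference of -0.27 log2 units.

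No role is given here for the remaining 6 genes. FBgn0028519 had the largest ratio of the genes with more than 3 counts in every RT library, with 154 CPM in RT replicate 1, 2.31 and 2.45 CPM in RT replicates 2 and 3, and 0.214, 0.437 and 0.955 CPM in the Dicer2 25C libraries. That is 64.9 times the mean of RT replicates 2 and 3. FBgn0033465 had 415 CPM in RT replicate 1, 95.7 and 91.9 CPM in RT replicates 2 and 3, and 68.0, 78.4 and 87.2 CPM in the Dicer2 25C libraries. *CG9119* had 147 CPM in RT replicate 1, 18.6 and 21.5 CPM in RT replicates 2 and 3, and 13.2 to 21.0 CPM in the Dicer2 25C libraries. *CG15337*, 706 bases from *GIIIspla2* on chromosome X, had 518 counts in RT replicate 1, 6 and 1 counts in RT replicates 2 and 3, and 5 to 7 counts in the Dicer2 25C libraries. *CG10185* had 9.55 CPM in RT replicate 1, 1.58 and 1.36 CPM in RT replicates 2 and 3, and 1.34, 1.47 and 4.50 CPM in the Dicer2 25C libraries, of which replicate 3 again was the highest. The antisense RNA *asRNA:CR45144* had 7.89 CPM in RT replicate 1 and 0.516 to 1.13 CPM in the 5 others. It lies opposite *RhoGEF2*, which had 308 CPM in RT replicate 1 and 308 and 293 CPM in RT replicates 2 and 3, and the strand setting of the counting is not stated, so reads of the pair may not be told apart.

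Overlapping genes were read for the whole set. In the annotation, 17 of the 33 overlapped at least 1 other gene of the count files. Of the 24 overlapping genes that are not among the 33, 0 were more than 1 log2 unit above both other RT libraries in RT replicate 1, and 6 lay on the same strand as the gene they overlap.

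The RT control and the Dicer2 25C control were then compared over all genes, since a library with such a difference enters every contrast made with its group. RT replicate 1 was more than 2 log2 units above all 3 Dicer2 25C libraries for 27 of the 33 genes, against 55 genes among all 17559 (0.313%), a count that rests on the library that chose the genes. With all 6 libraries, the quasi-likelihood test of edgeR over 10187 genes called 132 higher in the RT control (1.3%) and 155 lower, with log2 fold changes beyond 1 and p adjusted by Benjamini-Hochberg under 0.05. Of the 33 genes, 31 were tested and 0 were called in either direction, with edgeR adjusted p between 0.0623 (*CG3999*) and 0.89 (*Amy-p*). RT replicate 1, whose values chose the genes, is part of this fit and of those by DESeq2 and the likelihood ratio test. For the 33 genes the calls, fold changes and p are therefore a description. DESeq2 called 6 of them higher (*Sodh1*, *Shmt*, *Argl*, *Tdh*, *CG3999* and *asRNA:CR45144*) and 224 of all 10187 genes. DESeq2 gave no adjusted p for *Gart*, *CG5966*, FBgn0028519, *atk*, *Sardh*, *CG11089*, *Nmdmc*, *GIIIspla2*, *Cyp4e3*, *Cyp309a1* and *Amy-p*, so it made no decision on these. The likelihood ratio test of edgeR called 18 of the 33 genes higher and 251 of all 10187 genes. The log2 fold change of the RT control over the Dicer2 25C control was positive for 29 of the 31 with a median of 2.14, where the median of all genes tested was -0.00. The fold changes had wide errors: for *Gart* the estimate was 3.05 with a standard error of 0.88 (edgeR, adjusted p = 0.0718), and for FBgn0028519 it was 6.73 with a standard error of 2.13 (edgeR, adjusted p = 0.0883), both on the log2 scale.

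The 5 libraries without RT replicate 1 show where the 33 genes stood in the other RT libraries. RT replicates 2 and 3 entered the rule as the low side, so these values too are a description. For 20 of the 33, both RT replicates 2 and 3 were above all 3 Dicer2 25C libraries, a pattern held by 1990 of the 17559 genes (11.3%). For 6 of the 33, *CG15337*, *Amy-p*, *Edg91*, *Ama*, *Cyp309a2* and *mag*, both were below all 3, a pattern held by 4339 genes (24.7%). The other 7 overlapped. All 4 purine genes and all 5 one-carbon and glycine genes were among the 20, and all 3 cytochrome P450 genes were outside it.

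Without RT replicate 1, edgeR called 123 of 10251 genes higher in the RT control (1.2%) and 137 lower (1.34%). Of the 33 genes, 7 were called higher, *Gart*, *Shmt*, *CG5966*, FBgn0028519, *Sardh*, *atk* and *CG3999*, and 3 were called lower, *Amy-p*, *Edg91* and *Cyp309a2*. The log2 fold change was 1.30 for *Gart* (standard error 0.11), 1.09 for *Shmt* (standard error 0.12) and 1.43 for *CG3999* (standard error 0.13). These 3 fold changes were smaller than those with 6 libraries and their errors were several times narrower. Both follow from leaving out the library whose high level chose the genes. On the low side, *Cyp309a2* had a log2 fold change of -3.63 (standard error 0.38) and *Amy-p* one of -3.52 (standard error 0.28). The median over the 31 tested genes was 0.61, against -0.01 over all genes tested. Of the wider pathway lists, 2 of 11 purine genes (*Gart* and *Paics*) and 4 of 15 one-carbon and glycine genes (*Shmt*, *pug*, *Sardh* and *CG3999*) were called higher and 0 lower, and 0 were called in fatty acid oxidation and the pentose phosphate pathway. Outside the 33 genes these calls were *Paics* and *pug* only, from lists written after the values were known.

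**Figure D4:**
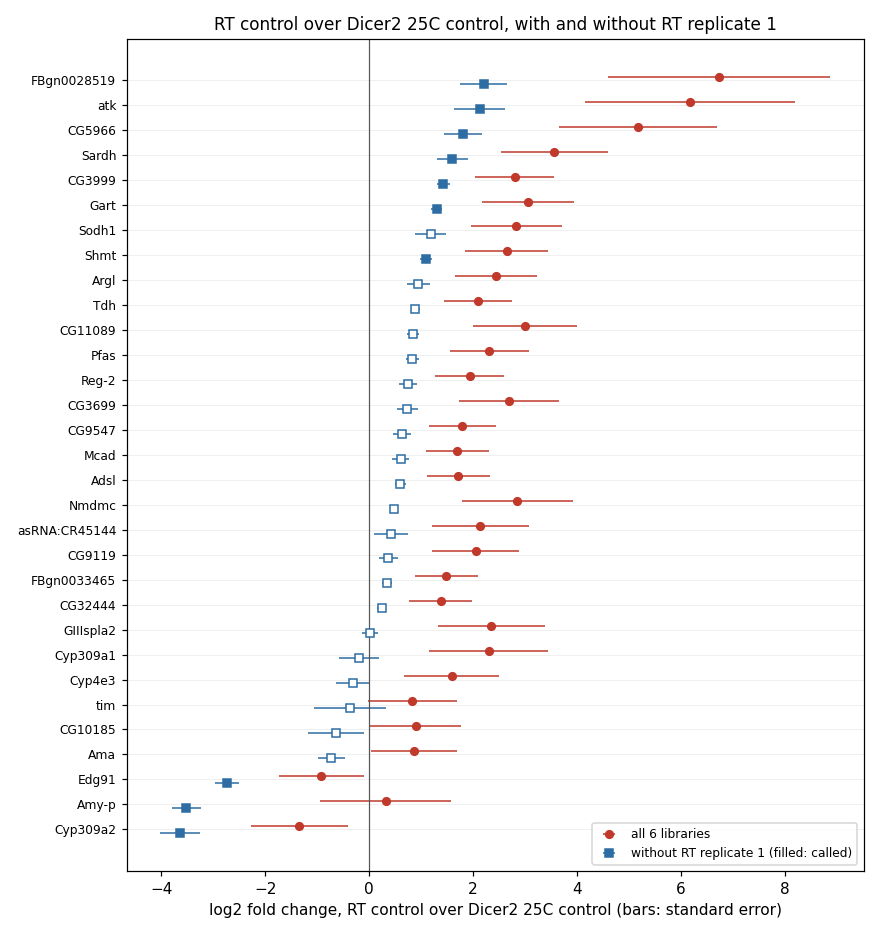
Log2 fold change of the RT control over the Dicer2 25C control from edgeR for the 31 tested genes, with all 6 libraries (red circles) and without RT replicate 1 (blue squares, filled where called), bars showing the standard error. Without RT replicate 1 the median is 0.61, in place of 2.14, the bars are shorter, 7 genes are called higher and 3 lower. The lower median and shorter bars follow from leaving out the library that chose the genes.

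Markers of the cell types and states a head sample could hold were read beside these results. Summed over 7 genes, markers of neurons and photoreceptors had 37564 CPM in RT replicate 1, 38815 and 38500 CPM in RT replicates 2 and 3, and 49340 to 64713 CPM in the Dicer2 25C libraries. *ninaE* made most of these reads, with 29107 CPM in RT replicate 1 and 30962 and 30921 CPM in RT replicates 2 and 3. *ninaE* had 39397 to 56183 CPM in the Dicer2 25C libraries, so the sum mostly follows this gene. Of the 7 genes, 2 were above both other RT libraries in RT replicate 1 and 2 were below both. Fat body markers were split, with 4 of 10 tested genes above both other RT libraries in RT replicate 1 and 4 below both. The yolk protein genes *Yp1*, *Yp2* and *Yp3* made most of their reads and summed to 29611 CPM in RT replicate 1, 45030 and 43022 CPM in RT replicates 2 and 3, and 14949 to 24940 CPM in the Dicer2 25C libraries, while the rest of the list summed to 3528 CPM in RT replicate 1, 3152 and 3122 CPM in RT replicates 2 and 3, and 2106 to 2374 CPM in the Dicer2 25C libraries. *bmm*, the triglyceride lipase brummer, had 305 CPM in RT replicate 1, 74.4 and 95.6 CPM in RT replicates 2 and 3, and 62.2, 75.4 and 76.1 CPM in the Dicer2 25C libraries. Of the tested markers, 4 of 5 for glia and 9 of 10 for hemocytes were below both other RT libraries in RT replicate 1, but 0 by more than 1 log2 unit. The median difference to the mean of RT replicates 2 and 3 was -0.31 log2 units for glia and -0.49 for hemocytes. The share of all genes above or below both by any margin was not counted, so such counts are a description. Muscle markers were split, with 3 of 7 above both and 4 below both. Without *Mhc*, at 2512 CPM in RT replicate 1 and 3709 and 3523 CPM in RT replicates 2 and 3, they summed to 3662 CPM in RT replicate 1 and 3638 and 3692 CPM in RT replicates 2 and 3. Enzymes of the midgut, a list of 47 genes that holds *Amy-p* and *mag*, summed to 46.8 CPM in RT replicate 1, 26.9 and 30.4 CPM in RT replicates 2 and 3, and 24.2 to 26.6 CPM in the Dicer2 25C libraries. Without *Amy-p*, *mag* and *Amy-d* the other 44 summed to 12.99 CPM in RT replicate 1, 13.5 and 13.7 CPM in RT replicates 2 and 3, and 16.6 to 19.0 CPM in the Dicer2 25C libraries. Markers of eggshell and germline summed to 8.92 to 11.8 CPM over the 6 libraries, those of testis and accessory gland to 0.172 to 0.858 CPM and those of the spermatheca to 0.0536 to 0.119 CPM. All 11 tested heat shock genes were below both other RT libraries in RT replicate 1, 6 of them by more than 1 log2 unit. Their median difference to the mean of RT replicates 2 and 3 was -3.02 log2 units, against -0.05 over all genes tested. The whole heat shock list summed to 1540 CPM in RT replicate 1, 2033 and 10180 CPM in RT replicates 2 and 3, and 1358 to 1750 CPM in the Dicer2 25C libraries. In this sum RT replicate 3 was the library that stood apart. Of 21 genes that respond to feeding and fasting, 4 were more than 1 log2 unit above (*tobi*, *Lip4*, *Pepck2* and *Gnmt*) and 2 as far below (*fit* and *to*). *tobi*, an alpha-glucosidase gene regulated by dietary protein and sugar, had 201 CPM in RT replicate 1, 46.9 and 58.4 CPM in RT replicates 2 and 3, and 6.27, 9.57 and 18.8 CPM in the Dicer2 25C libraries. *fit*, a satiety signal of the fat body in females, had 34.2 CPM in RT replicate 1, 109 and 98.4 CPM in RT replicates 2 and 3, and 69.4, 74.5 and 63.1 CPM in the Dicer2 25C libraries. Among 53 tested immune genes left in the count, 2 were more than 1 log2 unit above (*Tsf1* and *IBIN*) and 2 below, while the antimicrobial peptide genes set aside at the start had 16.7 to 64.9 CPM in RT replicate 1 and 0.235 to 5.10 CPM in RT replicates 2 and 3. In Dicer2 25C replicates 2 and 3 all 6 were above their level in RT replicate 1, at 34.5 to 260 CPM, and in Dicer2 25C replicate 1 they had 2.47 to 27.5 CPM. The part of cell makeup, feeding, infection and heat in the levels of the 33 genes was not tested.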

How the data were processed

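The authors deposited raw read counts per gene, 1 file per library, made with Trimmomatic 0.36, TopHat2 2.1.0 and HTSeq 0.6.1 per the submitters' processing notes. The strand and multiple-alignment settings are not given in the sources used here. Rows that name no gene were dropped. Reads without a gene made 3.16% to 4.76% and ambiguous reads 2.36% to 3.62% of the sum of gene counts, reads without a gene and ambiguous reads. Alignments set aside as not unique are left out of that sum. Gene counts ran from 18651266 to 42487803 per library. Of 17559 identifiers, 17253 matched the BDGP6.54 annotation, another release of the same assembly, used for names and coordinates.

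CPM were taken over the sum of gene counts. The groups were compared with the quasi-likelihood test of edgeR 4.0.16 (R 4.3.3; TMM, its default filter, no replicate block), checked on simulated data. Alternatives were RLE scaling, DESeq2 1.42.0, the likelihood ratio test, other filters, pseudocounts and thresholds, the replicate block and each library left out. Replicates of a group differed by more than sampling noise. Chi-square per degree of freedom was 143 for RT replicates 1 and 2, 137 for 1 and 3, and 32.5 for 2 and 3. It was 30.1 to 81 for pairs of Dicer2 libraries, so both pairs with RT replicate 1 had the highest values. Nothing in the labels says which technical steps the replicates shared. The genes and lists were chosen with earlier results of these data known. The named genes are all 33, *Dcr-2*, those at the threshold, and list genes chosen after their values were seen. Promoter sequences were not used here.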

Additional observations from a re-analysis of the deposited data

How the results depend on the processing

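The set of 33 genes held 29 to 44 genes under other pseudocounts, TMM-adjusted totals, a count minimum or with 1 other RT library left out, and 190 and 11 genes at a log2 difference over 1 and over 3. At a difference over 1, 2 of the 33 were raised in 1 Dicer2 25C library. Genes called between the groups numbered 287, against 437 by DESeq2 and 495 by edgeR's likelihood ratio test, and leaving out 1 library gave 33 (without Dicer2 25C replicate 2) to 438 (without Dicer2 25C replicate 3). Of the 33 genes, 0 were called higher, against 6 by DESeq2, 18 by that likelihood ratio test, 1 without a filter on low counts (*CG3999*) and 0 to 7 with 1 library left out, 7 only without RT replicate 1. Of all genes tested, DESeq2 called 224 of 10187 higher and that likelihood ratio test 251 of 10187. It was 168 of 15761 without the filter and 123 of 10251 without RT replicate 1. With the replicate block 91 genes and 0 of the 33 were called. Deviations of same-numbered libraries correlated at -0.08, -0.00 and 0.01, so the numbers were not read as pairs, and the log2 fold change of *Amy-p* was -1.12 with the block in place of 0.32. With 1 library left out, log2 fold changes ran from -0.73 to 1.31 for *Ama*, -3.52 to 0.89 for *Amy-p*, -0.36 to 1.95 for *tim*, -0.32 to 2.04 for *Cyp4e3*, -0.20 to 2.81 for *Cyp309a1* and -0.64 to 1.65 for *CG10185*. All 6 lowest values were those without RT replicate 1, the library whose high level chose the genes. The cause was not tested. Over the 31 tested genes of the 33, 327 of the refits kept direction and call, 34 gained a call and 7 changed sign. The 327 include DESeq2 refits without an adjusted p, which kept direction but made no decision on the call. RT replicates 2 and 3 were above all Dicer2 25C libraries for 21 of the 33 genes with TMM-adjusted totals, and Dicer2 25C replicate 3 was the highest of its group for 22, both chosen after seeing the data. For *mag* and *CG15337* the counts outside RT replicate 1 limit any ratio.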
